A study of Mus musculus with 9 samples.

Results

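The genes described here are kinesins, centromere and kinetochore proteins and regulators of mitosis, 80 of the 16509 genes in the table. They were taken by name alone: 36 symbols that begin with Kif and a digit, 21 that begin with Cenp and a letter, and 23 mitotic genes listed one by one, such as Plk1, Bub1b and Ccnb1. The Kif pattern also takes kinesins that carry cargo along axons and cilia, so 23 of the 36 kinesins are kept apart below as transport, ciliary and other kinesins. A filter on low counts left 72 of the 80 for testing, among 11949 genes in all. The other 8 are Kif5a, Kif17, Kif19a, Kif19b, Kif26a, Kif26b, Kif27 and Kif28, none of which had more than 10 counts in any library.

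In mitosis the kinase CDK1, bound to cyclin A or B, drives the cell into division, and Polo-like and Aurora kinases build the spindle. Each chromosome carries a centromere, a stretch of chromatin marked by the histone CENP-A, on which the CENP proteins and then the NDC80 complex assemble a kinetochore that binds microtubules. The checkpoint proteins hold back the anaphase-promoting complex and its activator CDC20 until every kinetochore is attached, and separase then cuts the cohesin between sister chromatids. Transcripts of most of these genes peak in G2 and M phase. In a growing tumor cell line their levels therefore follow the share of dividing cells and how much of them each dividing cell holds. In RNA from bulk cells, fewer cells in mitosis and less of these transcripts per dividing cell cannot be told apart.

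The 9 libraries were made from bulk RNA of MC38, a colorectal cancer line of the mouse. There were 3 libraries of control cells (Ctrl, with the treatment label DMSO, where the study's methods name PBS), 3 of cells that received copper chloride plus cystine (labelled Cu-Cys) and 3 of cells given Cadict, an EGFR-targeted nanodrug that delivers copper and cystine together with glucose oxidase. No dose or time is given for these libraries, and the labels do not say whether replicates were separate cultures. The study's methods state in general that cell experiments were repeated independently, without naming these libraries, so p-values measure the spread between these libraries, which may be technical. The Cadict columns carry an abbreviation that was read as Cu-Cys with glucose oxidase and the GE11 peptide, an inference from the components.

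Total expected counts per library were even, from 17905771 to 18293056. The 10 most counted genes took 10.7% to 11.2% of the counts in Cadict libraries and 4.72% to 5.24% in the other libraries, and the scaling factors of edgeR's TMM method were 0.6395 to 0.6654 in Cadict, 1.206 to 1.209 in Cu-Cys and 1.262 to 1.274 in Ctrl libraries. Of 8 epithelial markers 7 were in the table, with summed levels of 4.22 to 6.24 TPM, a level per transcript length, in Ctrl, 3.5 to 3.95 in Cu-Cys and 11.6 to 13.3 in Cadict libraries. In Ctrl libraries Epcam and Cldn7 were at 0 TPM and Krt8 averaged 0.170, while Cdh1 averaged 2.52 and Krt19 2.25, the latter 8.96 in Cadict libraries. The part of these markers in the results was not tested. Col1a2, a collagen gene of fibroblasts, averaged 248 TPM in Ctrl, 124 in Cu-Cys and 22.1 in Cadict libraries, and its part in the results was not tested. The summed fibroblast list of 4 genes, all present in the table, ran from 261 to 283 TPM in Ctrl, 132 to 138 in Cu-Cys and 21.3 to 26.7 in Cadict libraries. Of 5 leukocyte markers 4 were in the table. Their summed levels were 7.70 to 8.76 TPM in Ctrl, 4.79 to 5.96 in Cu-Cys and 15.2 to 18.7 in Cadict libraries. In Ctrl libraries Ptprc averaged 0.0467 TPM, Itgam 0.00667 and Lyz2 1.02. Most of the sum was Cd68, which averaged 7.05 TPM in Ctrl, 4.95 in Cu-Cys and 15.9 in Cadict libraries. Its part in the results was not tested. The 3 endothelial markers summed to between 0.410 and 1.20 TPM in every library.

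Most of these genes were lower in Cadict-treated cells. Together the 80 genes took 0.958% ± 0.0106 (SD, n = 3) of all counts in Ctrl, 0.825% ± 0.00653 in Cu-Cys and 0.276% ± 0.0144 in Cadict libraries. Levels below are TMM CPM, a gene's counts relative to the TMM-scaled library total, and a log2 fold change compares 2 group levels on that scale. A gene was called at the study's threshold of at least a 2-fold change and an adjusted p of at most 0.001 (edgeR's quasi-likelihood test, Benjamini-Hochberg adjustment over all 11949 genes, written below as edgeR adjusted p), and rose or fell at an adjusted p of at most 0.05.

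In Cadict against Ctrl, 43 of the 72 tested genes were called lower, where 27.1% of all genes tested were. Only Kif5b and Cenpw were called higher, where 20.7% of all genes were. At an adjusted p of at most 0.05, 53 fell (47.1% of all genes) and 15 rose (40.6% of all genes), and 4 passed in neither direction. The median log2 fold change was -1.29 over the 72 genes and -0.13 over all genes tested. The choice of scaling sets where 0 lies. With library totals in place of TMM, the median of all genes moved by -0.95, 54 of the 72 were called lower and 0 higher, and 3 rather than 17 of the 72 had a log2 fold change above 0. With DESeq2's size factors it moved by 0.12, with 39 called lower and 4 higher. A change of scaling moves all genes by about the same amount, so the distance of the 72 from the median of all genes, -1.17, is by construction the same under the 3 scalings.

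**Figure D1:**
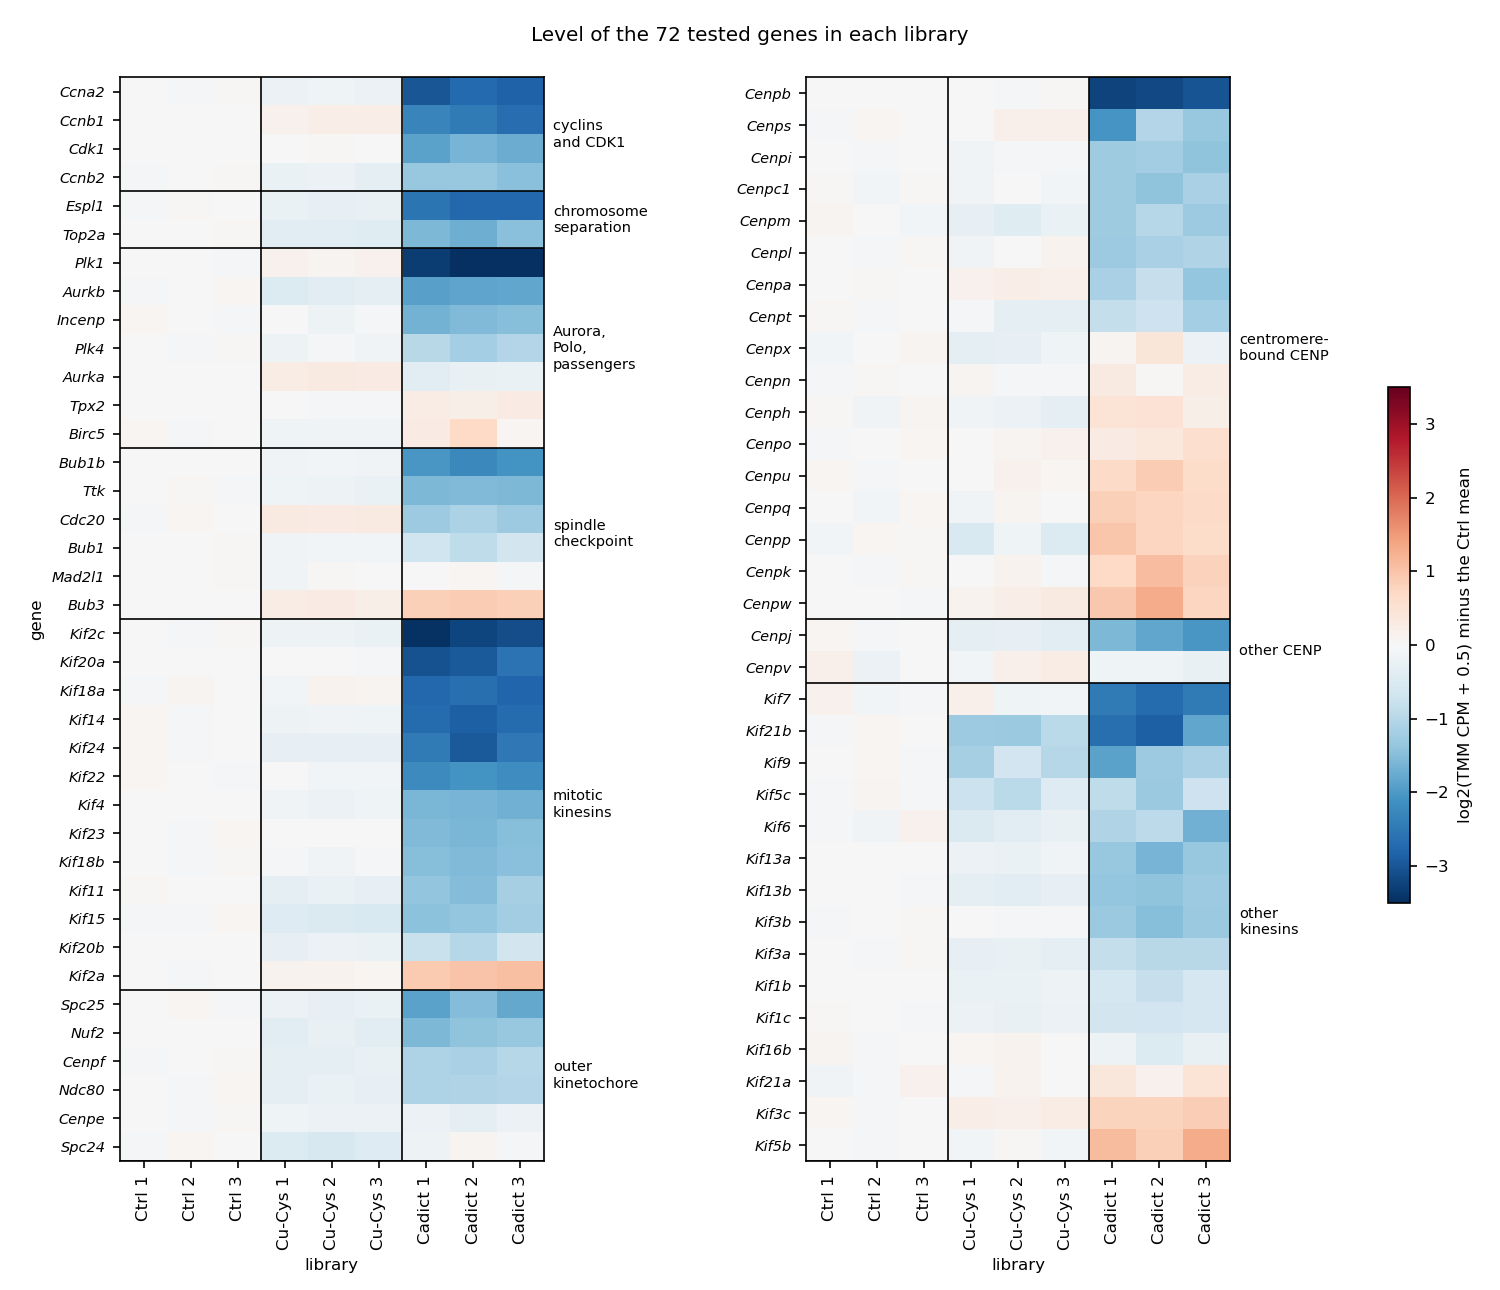
Heat map of the 72 tested genes (top to bottom, grouped by role) in the 9 libraries (left to right); color is log2(TMM CPM + 0.5) minus the Ctrl mean of the gene, blue lower and red higher. The 3 Cadict libraries are blue for most genes, while Bub3, Kif2a, Kif5b and a block of CENP genes are red under this scaling; with library totals only Kif2a, Kif5b and Cenpw are above 0.

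Cu-Cys changed these genes far less. In Cu-Cys against Ctrl, Kif21b alone was called lower (1.47% of all genes were) and 0 were called higher (0.167% of all genes). At an adjusted p of at most 0.05, 32 fell (22.4% of all genes) and 5 rose (22.6% of all genes). The 5 were Cdc20, Aurka, Bub3, Kif3c and Ccnb1, with log2 fold changes of 0.20 to 0.31, and Ccnb1, at 0.19, no longer passed the test without the third Cu-Cys library. Nor did Ccnb1 with library totals (0.13), FPKM (0.13) or TPM (0.055), or Aurka (0.15) and Bub3 (0.11) on TPM. Kif3c is named after its values were seen. The median over the 72 was -0.11, beside 0.0067 for all genes. Both comparisons use the same 3 Ctrl libraries, so their values are given side by side and nothing is drawn from their likeness.

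**Figure D2:**
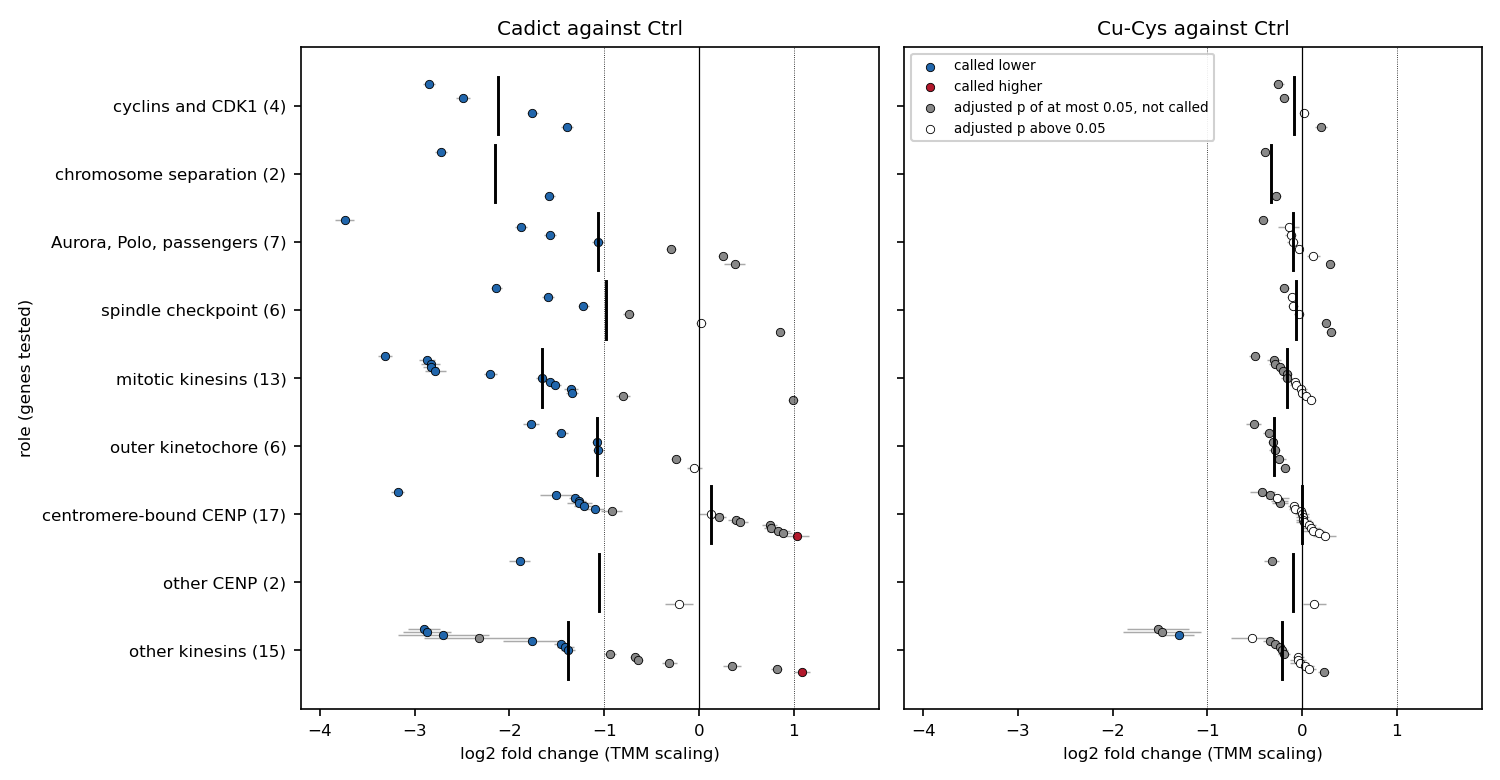
Log2 fold change of each tested gene by role for Cadict against Ctrl (left) and Cu-Cys against Ctrl (right); points are genes with their SE, vertical bars the median of the role, dotted lines a 2-fold change. With Cadict, 8 of the 9 roles have a median below 0 and the centromere-bound CENP genes one of 0.13, which is -0.83 with library totals; with Cu-Cys, all but 3 points lie within a 2-fold change.

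Many of these genes share short promoter elements that restrict transcription to G2 and M phase. The cell cycle genes homology region (CHR) is bound by the MuvB core, which forms the repressor complex DREAM in resting cells and an activator with B-MYB and FOXM1 in dividing cells, and CCAAT boxes nearby are bound by NF-Y. RefSeq windows of 300 bases, from 250 before to 50 after the annotated start (GRCm38.p6), were matched by gene ID to 68 of the 80 genes, in 75 windows. CHR was searched as TTTGAA or TTCGAA and CCAAT as itself, each on both strands; matches of the 2 kinds can share 1 base at their ends. A CHR match was in 42.7% of these windows, in 14.0% of those of all tested genes and in 19.2% of all 32851 windows. CCAAT was in 60.0%, against 37.4% of all windows, and both were in 37.3%, against 7.52%. The windows of the transport, ciliary and other kinesins held CHR in 10.5% and those of the remaining genes in 53.6%. Such a match is a description and not a binding site.

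The windows of the 6 listed genes with the smallest adjusted p among those called that hold a CHR match are shown because they place these elements beside the start site, with CHR and CCAAT matches in capitals. Espl1 lies on the plus strand at chr15:102296043-102296342, Plk1 on the plus strand at chr7:122159185-122159484 and Bub1b on the plus strand at chr2:118597961-118598260. Cdk1 lies on the minus strand at chr10:69352863-69353162, Top2a on the minus strand at chr11:99024140-99024439 and Ttk on the plus strand at chr9:83834439-83834738. Each is printed 5′ to 3′ in the direction of its gene.
Espl1: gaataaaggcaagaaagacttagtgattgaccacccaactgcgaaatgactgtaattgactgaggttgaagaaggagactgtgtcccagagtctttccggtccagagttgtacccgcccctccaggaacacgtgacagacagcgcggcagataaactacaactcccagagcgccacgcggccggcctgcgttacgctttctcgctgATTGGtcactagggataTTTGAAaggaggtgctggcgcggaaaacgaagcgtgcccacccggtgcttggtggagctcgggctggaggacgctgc
Plk1: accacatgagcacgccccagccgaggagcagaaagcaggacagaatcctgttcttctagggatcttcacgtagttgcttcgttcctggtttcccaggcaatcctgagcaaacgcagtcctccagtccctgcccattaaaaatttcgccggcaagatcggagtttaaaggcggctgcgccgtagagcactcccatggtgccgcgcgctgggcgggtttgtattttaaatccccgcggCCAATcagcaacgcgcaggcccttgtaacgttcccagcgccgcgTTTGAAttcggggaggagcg
Bub1b: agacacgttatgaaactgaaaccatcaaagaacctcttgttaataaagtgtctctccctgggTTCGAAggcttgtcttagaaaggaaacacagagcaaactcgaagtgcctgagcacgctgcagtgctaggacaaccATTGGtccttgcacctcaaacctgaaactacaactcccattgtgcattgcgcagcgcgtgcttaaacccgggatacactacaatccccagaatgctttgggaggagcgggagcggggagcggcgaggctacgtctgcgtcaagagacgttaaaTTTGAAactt
Cdk1: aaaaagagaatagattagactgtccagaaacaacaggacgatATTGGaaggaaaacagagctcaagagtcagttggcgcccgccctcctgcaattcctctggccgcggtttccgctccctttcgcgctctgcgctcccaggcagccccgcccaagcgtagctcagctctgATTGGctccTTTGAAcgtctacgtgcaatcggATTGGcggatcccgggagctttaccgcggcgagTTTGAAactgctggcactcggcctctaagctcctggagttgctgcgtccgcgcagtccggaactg
Top2a: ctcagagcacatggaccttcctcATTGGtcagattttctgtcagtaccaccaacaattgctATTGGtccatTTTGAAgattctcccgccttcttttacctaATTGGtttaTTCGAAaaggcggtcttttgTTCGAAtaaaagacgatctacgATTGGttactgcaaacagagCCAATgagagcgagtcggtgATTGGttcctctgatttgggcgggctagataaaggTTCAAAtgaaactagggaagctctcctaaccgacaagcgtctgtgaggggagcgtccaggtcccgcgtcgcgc
Ttk: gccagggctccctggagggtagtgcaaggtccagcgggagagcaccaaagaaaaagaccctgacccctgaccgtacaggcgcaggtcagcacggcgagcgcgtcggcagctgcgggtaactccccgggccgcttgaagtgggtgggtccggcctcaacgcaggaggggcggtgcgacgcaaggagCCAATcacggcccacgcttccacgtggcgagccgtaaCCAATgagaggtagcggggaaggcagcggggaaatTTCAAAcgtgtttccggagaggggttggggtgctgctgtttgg

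Counting from the start site, the CHR match of Espl1 began at -27, behind a CCAAT match at -44. In Plk1 the CHR match began at 31, after the annotated start, and the CCAAT match at -14. Unlike those of the other windows shown, the end of the Plk1 window did not match an annotated transcript. Its start site, and so these positions, are uncertain. Cdk1 held CHR matches at -71 and -15 and CCAAT matches at -208, -80 and -48. Top2a held 4 CHR and 6 CCAAT matches, the most of the 6 windows. All 6 genes were called lower with Cadict, but a call was a condition for showing them, so nothing on the elements follows from it.

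Among the 63 tested genes with a window, 23 of the 29 with a CHR match were called lower in Cadict against Ctrl (79.3%), and 14 of the 34 without one (41.2%). Over all tested genes with a window the shares were 28.6% with and 26.4% without CHR. The median log2 fold change was -1.39 with and -0.80 without a match. None of the 12 transport, ciliary and other kinesins with a window that were tested held CHR. The median of these 12 was -1.16, and 5 were called lower. Without those kinesins, 9 of 22 genes lacking CHR were called lower, with a median of -0.22. Within the centromere-bound CENP genes, the 5 with CHR (Cenpm, Cenpl, Cenpa, Cenpn and Cenpw) had a median of -1.10 and the 12 without it a median of 0.26. This split by element is a description of windows and fold changes, and no test was made of it.

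**Figure D3:**
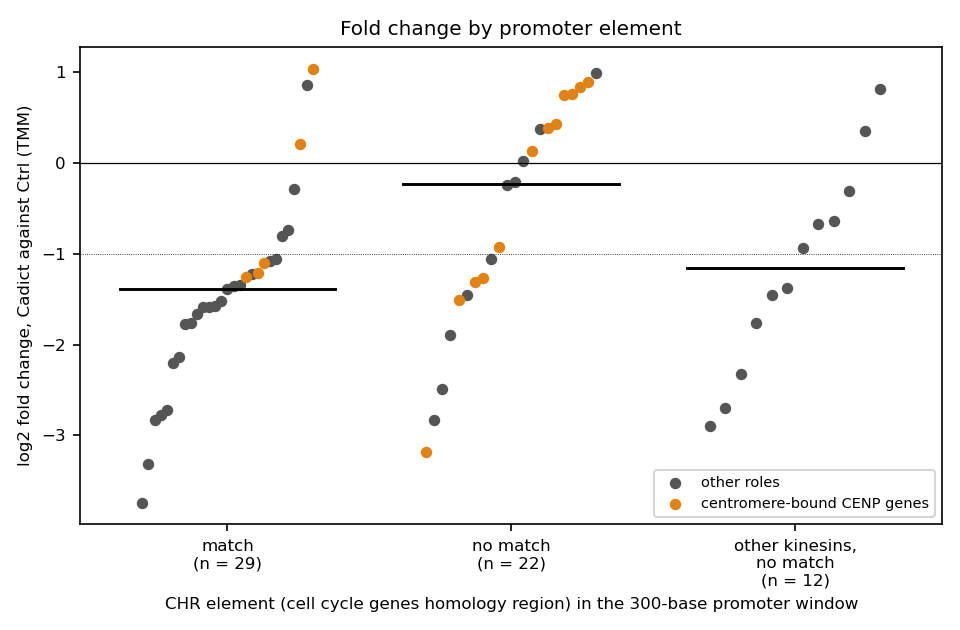
Log2 fold change of Cadict against Ctrl (TMM scaling) for the 63 tested genes with a promoter window, by whether it holds a CHR match; points are genes, bars medians, orange the centromere-bound CENP genes. The 29 genes with a match have a median of -1.39 and the 34 without one -0.80. The latter are drawn as 12 transport, ciliary and other kinesins, with a median of -1.16, and 22 remaining genes, with a median of -0.22. The points above 0 of those 22 include 7 orange points, all of which are below 0 with library totals.

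The cyclins and CDK1 were among the most reduced. All 4 genes were called lower with Cadict, where 27.1% of all genes were, with a median log2 fold change of -2.12. Ccna2, which encodes cyclin A2 and acts from S phase into mitosis, stood at 414, 405 and 424 TMM CPM in Ctrl libraries, 359, 372 and 362 in Cu-Cys and 51.7, 62.8 and 58.0 in Cadict. The Cadict libraries were far below both other groups and none overlapped. Its log2 fold change was -2.85 ± 0.064 (SE) for Cadict (edgeR adjusted p = 2.5e-15) and -0.19 ± 0.056 for Cu-Cys (edgeR adjusted p = 0.0149), and the Cu-Cys value, from -0.18 to -0.17, did not pass without Ctrl replicate 1 or 3 or Cu-Cys replicate 3. Ccnb1, cyclin B1 and the partner of CDK1 at mitotic entry, was at 189, 191 and 191 TMM CPM in Ctrl, 211, 222 and 223 in Cu-Cys and 37.8, 33.9 and 29.8 in Cadict libraries. It was thus higher than Ctrl in every Cu-Cys library and lower in every Cadict library. The log2 fold changes were 0.20 ± 0.059 for Cu-Cys (edgeR adjusted p = 0.0125) and -2.49 ± 0.069 for Cadict (edgeR adjusted p = 2.5e-14). Of the 50-base stretches of Ccnb1, 23.4% also occur in another annotated gene, mainly its pseudogene Ccnb1-ps, so the split of its reads is uncertain. Cdk1, the kinase itself, averaged 165 ± 3.01 (SD, n = 3) TMM CPM in Ctrl, 167 ± 2.68 in Cu-Cys and 48.8 ± 4.15 in Cadict libraries. It did not pass the test with Cu-Cys (0.020 ± 0.053, edgeR adjusted p = 0.791) and fell by 1.76 on the log2 scale with Cadict. Ccnb2, cyclin B2, fell under both, by 1.39 with Cadict and by 0.25 with Cu-Cys.

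Both genes that act on sister chromatids fell under both treatments. Top2a, topoisomerase II alpha, which untangles replicated DNA, was the most abundant of all these genes per length, with a mean of 614 TPM in Ctrl. Its levels were 1395, 1389 and 1440.1 TMM CPM in Ctrl, 1073, 1087 and 1053 in Cu-Cys and 474, 432 and 508 in Cadict libraries. The 3 groups were fully apart, in that order. The log2 fold changes were -0.39 ± 0.055 for Cu-Cys (edgeR adjusted p = 5.4e-05) and -1.58 ± 0.057 for Cadict (edgeR adjusted p = 5.2e-13). Espl1, separase, went from 108 ± 2.86 TMM CPM in Ctrl to 90.2 ± 1.72 in Cu-Cys and 16.5 ± 1.34 in Cadict libraries. It fell by 0.27 and by 2.72 on the log2 scale.

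Plk1, the Polo-like kinase of spindle assembly and cytokinesis, had the largest fall of all 72 genes. Its levels were 96.8, 97.6 and 94.3 TMM CPM in Ctrl, 106, 102 and 106 in Cu-Cys and 9.09, 5.75 and 6.72 in Cadict libraries. Cadict libraries lay below every other library, and Cu-Cys libraries slightly above every Ctrl library. The Cadict change was -3.74 ± 0.10 on the log2 scale, 13.4-fold lower (edgeR adjusted p = 1.1e-14), and ranked 213 of all 11949 genes from the largest fall. The Cu-Cys difference did not pass the test (0.12 ± 0.066, edgeR adjusted p = 0.153). A pseudogene, Plk-ps1, is the main other gene with which Plk1 shares 6.56% of its 50-base stretches. Plk4, which starts centriole duplication, was near the threshold, with a log2 fold change of -1.06 for Cadict and of -0.12 for Cu-Cys (edgeR adjusted p = 0.108).

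The 2 Aurora kinases differed. Aurkb, the catalytic subunit of the chromosomal passenger complex that corrects wrong attachments, was at 116, 118 and 125 TMM CPM in Ctrl, 85.6, 90.2 and 95.5 in Cu-Cys and 31.4, 32.9 and 33.8 in Cadict libraries. No groups overlapped, and the log2 fold changes were -0.41 ± 0.054 for Cu-Cys (edgeR adjusted p = 3.2e-05) and -1.88 ± 0.062 for Cadict (edgeR adjusted p = 1.8e-13). Aurka, the kinase of spindle poles, was at 105, 104 and 106 TMM CPM in Ctrl, 127, 131 and 129 in Cu-Cys and 80.0, 87.5 and 90.1 in Cadict libraries. Every Cu-Cys library lay above Ctrl and every Cadict library below it. Its log2 fold changes were 0.30 ± 0.050 (edgeR adjusted p = 2.7e-04) and -0.29 ± 0.053 (edgeR adjusted p = 9.4e-05). Of the other passenger genes, Incenp, the scaffold, was called lower with Cadict at -1.57. Birc5, which encodes survivin, rose with TMM scaling by 0.38 ± 0.11 (edgeR adjusted p = 0.00444), but its Cadict levels of 118, 157 and 99.8 TMM CPM overlapped those of Ctrl, 101, 92.4 and 94.9, and the value was 0.18 without the second Cadict library. Tpx2, which activates Aurora A on the spindle, rose with TMM scaling from 307 ± 2.88 to 366 ± 13.4 TMM CPM. With library totals the log2 fold change of Birc5 was -0.58 and that of Tpx2 -0.70.

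**Figure D4:**
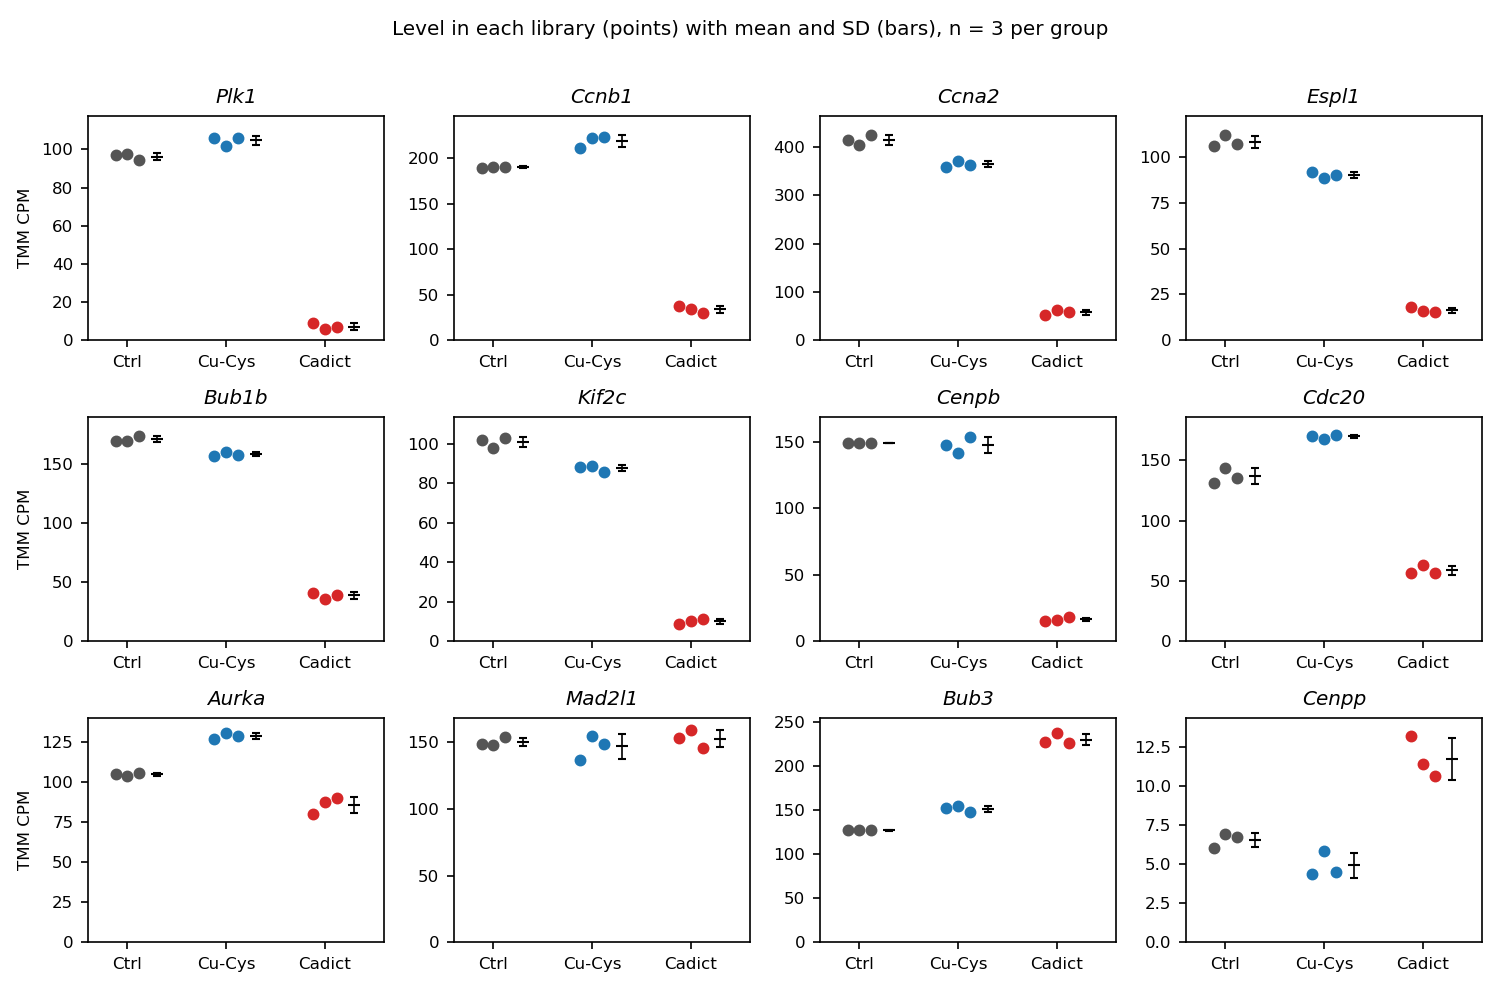
TMM CPM of 12 genes in each library (points, n = 3 per group, axes from 0) with the group mean and SD beside them. Cadict libraries sit below all others for Plk1, Ccnb1, Ccna2, Espl1, Bub1b, Kif2c, Cenpb, Cdc20 and Aurka, among the others for Mad2l1, and above them under this scaling for Bub3 and Cenpp, which are at -0.10 and -0.12 on the log2 scale with library totals.

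The checkpoint genes split. With Cadict, Bub1b, Ttk and Cdc20 were called lower, Bub1 fell short of 2-fold, Mad2l1 did not pass the test and Bub3 rose with TMM scaling. Bub1b encodes BUBR1, a part of the complex that restrains CDC20. It stood at 169.9, 169.7 and 174 TMM CPM in Ctrl, 157, 160.5 and 158 in Cu-Cys and 41.2, 35.6 and 39.5 in Cadict libraries. Only the Cadict libraries were far from Ctrl, at -2.14 ± 0.057 on the log2 scale (edgeR adjusted p = 1.6e-14), and the Cu-Cys value was -0.11 ± 0.050 (edgeR adjusted p = 0.0867). Ttk, the kinase MPS1 that starts checkpoint signaling, fell by 1.59 with Cadict and by 0.19 with Cu-Cys. The Cu-Cys value of Ttk was -0.16 and did not pass without Ctrl replicate 2 or Cu-Cys replicate 3. Bub1, a kinase that recruits other checkpoint proteins, fell by 0.74 with Cadict.

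Mad2l1, the MAD2 protein that is converted into the inhibitor of CDC20, was at 149, 148 and 154 TMM CPM in Ctrl, 137, 155 and 149 in Cu-Cys and 153, 159 and 146 in Cadict libraries. All 3 groups overlapped, and the log2 fold change of Cadict was 0.023 ± 0.056 (edgeR adjusted p = 0.699). With library totals that value was -0.93. Bub3, the adaptor that brings BUB1 and BUBR1 to kinetochores, was at 127, 127 and 128 TMM CPM in Ctrl, 152, 155 and 148 in Cu-Cys and 227, 237 and 226 in Cadict libraries. The 3 groups did not overlap. Its log2 fold changes were 0.25 ± 0.045 for Cu-Cys (edgeR adjusted p = 4.2e-04) and 0.86 ± 0.046 for Cadict (edgeR adjusted p = 5.3e-11), the latter -0.10 with library totals. Cdc20, the activator that the checkpoint restrains, was at 131, 144 and 135 TMM CPM in Ctrl, 170.4, 168 and 171 in Cu-Cys and 56.6, 63.3 and 56.7 in Cadict libraries. Cu-Cys libraries were all above Ctrl and Cadict libraries all below it, with log2 fold changes of 0.31 ± 0.053 (edgeR adjusted p = 2.7e-04) and -1.22 ± 0.058 (edgeR adjusted p = 1.2e-11). Of the 50-base stretches of Cdc20, 10.4% also occur in another gene, mainly Gm7856.

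Of the 13 mitotic kinesins, 11 were called lower with Cadict, where 27.1% of all genes were, and the median log2 fold change was -1.66. Kif2c, the microtubule depolymerase MCAK that works at centromeres, was at 102, 98.2 and 103 TMM CPM in Ctrl, 88.5, 88.9 and 85.9 in Cu-Cys and 8.75, 10.5 and 11.3 in Cadict libraries. The 3 groups were apart and the Cadict change, -3.31 ± 0.076 on the log2 scale, was 9.95-fold (edgeR adjusted p = 3.0e-15). Kif20a, which moves the passenger complex to the midzone, was at 142, 142 and 144 TMM CPM in Ctrl, 140.1, 145 and 138 in Cu-Cys and 16.7, 18.3 and 23.3 in Cadict libraries. Cu-Cys overlapped Ctrl, and only Cadict stood apart, at -2.87 ± 0.083 (edgeR adjusted p = 4.2e-14). Kif14, a kinesin of cytokinesis, and Kif18a, which dampens chromosome movements at alignment, both changed by -2.83 on the log2 scale. Kif22, which pushes chromosome arms toward the equator, changed by -2.20.

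Kif24, a depolymerase of centrioles, changed by -2.78 ± 0.11 in counts. Its effective length, read from the ratio of its count to its TPM and set against the median gene, was 2.24 to 2.31 in Ctrl libraries and 3.75 to 6.97 in Cadict libraries. This means that the deposited TPM of Kif24 fell further than its counts, with a log2 fold change of -4.82 on log2(TPM + 0.1). For 69 of the 72 genes that length moved by less than 0.1 on the log2 scale, and Kif4 and Cenpw were the other exceptions.

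The other spindle kinesins moved less. Kif11 (Eg5), which slides spindle poles apart, was at 274, 263 and 263 TMM CPM in Ctrl, 212, 229 and 219.5 in Cu-Cys and 102, 93.0 and 119.7 in Cadict libraries. The groups did not overlap, and Kif11 fell by 0.28 with Cu-Cys and by 1.35 with Cadict on the log2 scale. Kif15, which can stand in for Kif11, had the largest Cu-Cys fall of the mitotic kinesins, at -0.50 ± 0.055 (edgeR adjusted p = 6.2e-06), beside -1.34 for Cadict. Kif4, a chromokinesin, Kif23, the motor of the centralspindlin complex, and Kif18b, a regulator of astral microtubules, changed by -1.66, -1.57 and -1.52 with Cadict. Kif20b fell by 0.80 and was not called. Kif2a, a depolymerase that also acts in neurons and at spindle poles, went the other way with TMM scaling. Its levels were 80.9, 76.8 and 80.5 TMM CPM in Ctrl, 86.0, 86.9 and 82.9 in Cu-Cys and 149.9, 158 and 165 in Cadict libraries, with Cadict above all others. At 0.99 ± 0.052 on the log2 scale (edgeR adjusted p = 4.4e-11), Kif2a lay just under the 2-fold limit. It was 0.038 with library totals and -0.31 on log2(TPM + 1).

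With Cu-Cys, all 6 genes of the outer kinetochore fell, by small amounts, where 22.4% of all genes fell. Of these, Spc25, at -0.21, did not pass the test without the second Ctrl library. The log2 fold changes of the 6 ran from -0.51 to -0.18, and none was called. With Cadict, 4 of the 6 were called lower, where 27.1% of all genes were, and the median was -1.07. Nuf2, a subunit of the microtubule-binding NDC80 complex, was at 109, 109 and 107 TMM CPM in Ctrl, 83.8, 90.0 and 81.5 in Cu-Cys and 35.9, 40.2 and 42.5 in Cadict libraries. The order of the groups held in every library, with log2 fold changes of -0.35 ± 0.058 for Cu-Cys (edgeR adjusted p = 2.6e-04) and -1.45 ± 0.065 for Cadict (edgeR adjusted p = 5.8e-12). Ndc80, its partner in the complex, changed by -0.29 and -1.06, and Spc25, of the other end of the complex, by -0.24 and -1.77.

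Spc24, the partner of Spc25, did not follow. It was at 22.9, 24.9 and 23.5 TMM CPM in Ctrl, 17.0, 15.9 and 17.2 in Cu-Cys and 20.9, 25.6 and 22.7 in Cadict libraries. Cadict overlapped Ctrl (-0.046 ± 0.080, edgeR adjusted p = 0.593), whereas Cu-Cys lay below Ctrl (-0.51 ± 0.076, edgeR adjusted p = 9.3e-05). With library totals the Cadict value of Spc24 was -1.0. Cenpf, a large coat protein of the kinetochore, went from 244 ± 6.69 TMM CPM in Ctrl to 197 ± 5.86 in Cu-Cys and 115 ± 5.25 in Cadict libraries. Cenpe, the kinesin of chromosome congression, averaged 169, 149 and 143 TMM CPM in the 3 groups in that order, and its Cadict and Cu-Cys levels did not differ beyond their spread (-0.055 ± 0.051, edgeR adjusted p = 0.313).

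Of the 17 centromere-bound CENP genes, 7 were called lower and 1 higher in Cadict against Ctrl, beside 27.1% and 20.7% of all genes. At an adjusted p of at most 0.05, 8 fell and 8 rose with TMM scaling. That split was near the one of all genes, of which 47.1% fell and 40.6% rose. The median was 0.13, beside -0.13 for all genes. With library totals the median was -0.83 and 1 of the 17, Cenpw, was above 0. Cenpb, which binds the repeated DNA of centromeres, had the largest fall. It was at 149 TMM CPM in each Ctrl library, at 148, 142 and 154 in Cu-Cys and at 15.3, 16.1 and 18 in Cadict libraries. Only the Cadict libraries were apart, at -3.18 ± 0.066 on the log2 scale, 9.05-fold lower (edgeR adjusted p = 1.2e-15), while the Cu-Cys value was -0.0095 ± 0.051 (edgeR adjusted p = 0.901).

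Cenpa, the histone that defines the centromere, was at 54.3, 57.1 and 54.5 TMM CPM in Ctrl, 60.9, 64.5 and 63.1 in Cu-Cys and 25.0, 31.1 and 21.2 in Cadict libraries. It was called lower with Cadict at -1.10 ± 0.094 (edgeR adjusted p = 1.8e-08), and at -0.98 without the third Cadict library it was not called. Cenpc1, the link from CENP-A chromatin to the outer kinetochore, fell by 1.27, and Cenpi, Cenpl, Cenpm and Cenps, all subunits of the constitutive network, fell by 1.31, 1.21, 1.26 and 1.51. Cenpt, which recruits the NDC80 complex along a separate arm, fell by 0.92. It was at -1.02, past the 2-fold limit, without the second Cadict library and at -1.88 with library totals.

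The CENP genes that rose with TMM scaling were Cenph, Cenpk, Cenpn, Cenpo, Cenpp, Cenpq, Cenpu and Cenpw. Cenpo, Cenpp, Cenpq and Cenpu encode 4 subunits of one complex within the network, and their log2 fold changes were 0.43, 0.84, 0.76 and 0.75, or -0.52, -0.12, -0.20 and -0.21 with library totals. Cenpq was at 45.0, 42.4 and 47.5 TMM CPM in Ctrl, 41.5, 48.3 and 45.7 in Cu-Cys and 80.0, 75.9 and 72.2 in Cadict libraries. Cadict lay above both other groups, which overlapped. Exons of neighbors on the opposite strand cover 22.5% of the exon bases of Cenpo, 12.6% of those of Cenpp and 26.7% of those of Cenpu, and whether the counting used strand is not given in the sources used here. The same holds for Kif3c (40.7%), Kif20a (29.3%, by Cdc23), Kif7 (20.3%), Kif2a (19.2%), Kif4 (15.1%) and Ccna2 (12.5%). Cenpk, a network subunit beside CENP-H, was at 20.2 ± 0.645 TMM CPM in Ctrl and 37.3 ± 5.19 in Cadict libraries, a log2 fold change of 0.89, or -0.069 with library totals. Cenph rose by 0.39 and Cenpn, a reader of the CENP-A nucleosome, by 0.21 with TMM scaling, and with library totals the values were -0.56 and -0.74. Cenpn overlapped Ctrl, and it no longer passed the test without the first Ctrl library (0.17), the first Cadict library (0.15) or the third (0.18).

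Cenpw, a histone-fold partner of CENP-T, was the only called rise of the CENP genes. It was at 9.60, 9.70 and 9.24 TMM CPM in Ctrl, 10.4, 11.3 and 11.9 in Cu-Cys and 18.6, 23.9 and 16.5 in Cadict libraries. The Cadict libraries were above all others, at 1.04 ± 0.12 (edgeR adjusted p = 4.4e-07). The value was 0.88 without the second Cadict library, under the 2-fold limit, and 0.089 with library totals. Its effective length also moved, by -0.31 on the log2 scale, and 5.04% of its 50-base stretches occur in another gene. Cenpx, its relative in the histone-fold complex, did not pass the test at 0.13 ± 0.13 (edgeR adjusted p = 0.359). Of the 2 CENP genes outside the centromere network, Cenpj, a centriole protein, was called lower with Cadict at -1.89 and fell by 0.32 with Cu-Cys, while Cenpv gave -0.21 ± 0.15 for Cadict (edgeR adjusted p = 0.185). With library totals Cenpx was at -0.83 and Cenpv at -1.17, both past the test.

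Among the transport, ciliary and other kinesins, 15 of 23 were tested. With Cadict, 7 were called lower and 1 higher, beside 27.1% and 20.7% of all genes. Their median was -1.38, beside -1.27 for the other 57 members, of which 36 were called lower, and -0.13 for all genes. On log2(TPM + 1) it was -1.42, beside -2.26 for all 72. The median includes Kif5c, Kif9, Kif6 and Kif21b, which averaged 0.141, 0.199, 0.572 and 0.933 TMM CPM in Cadict libraries, on few counts. Falls were thus also seen outside the mitotic genes, but a smaller share was called. Kif5c and Kif9 are named after their values were seen. Kif21b, a motor that restrains microtubule growth, was the only one of the 72 genes called in Cu-Cys against Ctrl. It was at 6.49, 7.27 and 6.93 TMM CPM in Ctrl, 2.54, 2.52 and 3.33 in Cu-Cys and 0.680, 0.523 and 1.60 in Cadict libraries. The groups were apart, at -1.30 ± 0.16 for Cu-Cys (edgeR adjusted p = 2.0e-05) and -2.87 ± 0.25 for Cadict (edgeR adjusted p = 1.8e-08). Kif7, a ciliary regulator of Hedgehog signaling, was at 12.5, 10.6 and 10.8 TMM CPM in Ctrl, 12.7, 10.1 and 10.6 in Cu-Cys and 1.61, 1.31 and 1.60 in Cadict libraries. Cu-Cys overlapped Ctrl, and Cadict was lower by 2.90 ± 0.17 on the log2 scale (edgeR adjusted p = 2.1e-10). Kif3b, a subunit of the kinesin-2 motor of cilia, and Kif13a and Kif13b, which carry vesicles, were called lower at -1.38, -1.45 and -1.41. Kif6 and Kif9 were also called lower, at -1.76 ± 0.31 and -2.70 ± 0.48, on few counts.

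Kif5b, the ubiquitous conventional kinesin heavy chain, was the one called higher. Its levels were 242, 230.1 and 242 TMM CPM in Ctrl, 224, 247 and 224 in Cu-Cys and 515, 425 and 582 in Cadict libraries. Cadict libraries were above all others but spread widely, and the log2 fold change was 1.09 ± 0.086 (edgeR adjusted p = 6.3e-09). It was 0.98 without the third Cadict library, under the 2-fold limit, 0.14 with library totals and -0.22 on log2(TPM + 1).

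Cadict was also compared with Cu-Cys directly. No dose is given for these libraries, so whether both treatments delivered equal copper and cystine is not known. Of the 72 genes, 36 were called lower (23.6% of all genes) and 2 higher, Kif5b and Cenpp (18.6% of all genes). At an adjusted p of at most 0.05, 51 fell (45.6% of all genes) and 17 rose (40.3% of all genes) with TMM scaling. The median was -1.09 beside -0.10 for all genes, and with library totals the median of all genes moved by -0.88. Plk1 (-3.86 ± 0.10), Cenpb (-3.17 ± 0.066) and Kif2c (-3.11 ± 0.076) had the largest falls. The genes that were higher than Ctrl with Cu-Cys and lower with Cadict differed between the treatments, Ccnb1 by -2.69 ± 0.069 (edgeR adjusted p = 1.5e-14), Cdc20 by -1.53 ± 0.058 (edgeR adjusted p = 1.1e-12) and Aurka by -0.59 ± 0.053 (edgeR adjusted p = 3.5e-08). Cenpp moved the opposite way, at 6.06, 6.93 and 6.71 TMM CPM in Ctrl, 4.38, 5.85 and 4.52 in Cu-Cys and 13.2, 11.4 and 10.6 in Cadict libraries. The 3 groups of Cenpp did not overlap, and the difference between the treatments was 1.25 ± 0.13 (edgeR adjusted p = 2.1e-07). On log2(TPM + 1) that difference was 0.086 and did not pass. Against Ctrl, the Cu-Cys fall of Cenpp, -0.40 to -0.35, did not pass without Ctrl replicate 2 or 3 or Cu-Cys replicate 1 or 3.

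Partners of these genes that the name rule does not take were read from 5 lists of mitotic and cell cycle genes. Of 24 genes of spindle assembly and cytokinesis, 11 were called lower and 0 higher with Cadict, beside 27.1% and 20.7% of all genes. With Cu-Cys, 17 of the 24 fell without a call, where 22.4% of all genes fell. Ckap2l, a mitotic spindle protein, and Aspm, which organizes spindle poles, had the largest falls with Cadict, at -3.57 and -3.46. Of 23 further kinetochore genes, 6 were called lower and 3 higher, near or below the 27.1% and 20.7% of all genes. Haspin, the kinase that marks histone H3 for the passenger complex, fell from 28.2 ± 1.51 to 1.05 ± 0.336 TMM CPM, a log2 fold change of -4.74, and Knl1, the scaffold that binds BUB1 and BUB3, changed by -2.53. Zwint, which binds KNL1, and Pmf1, of the MIS12 complex, were called higher at 2.14 and 1.16, and Zwint stood at 84.0, 84.2 and 90.3 TMM CPM in Ctrl and at 384, 390.1 and 366 in Cadict libraries.

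Among 29 genes of the anaphase-promoting complex, securin and cohesin, 5 were called lower and 4 higher, both below the shares of all genes. Fbxo5, the inhibitor EMI1, and Cdc23, a subunit of the complex, changed by -2.40 and -1.97, and the small subunits Anapc16 and Anapc15 by 1.96 and 1.78. Of 23 regulators of mitotic entry, 10 were called lower and 0 higher, beside 27.1% and 20.7% of all genes. Rbl2 (p130, the pocket protein of DREAM) was at -2.85 and Cdc25b, the phosphatase that activates CDK1, at -2.65. Of 18 tested genes of G1 and S phase, 8 were called lower and 2 higher, beside the same shares of all genes. Ccnd1, cyclin D1, fell from 1057 ± 4.94 to 112 ± 8.09 TMM CPM, at -3.24, and Ccne2, cyclin E2, changed by -3.77. The higher genes were Cdkn1a, the CDK inhibitor p21, at 58.8, 59.4 and 58.6 TMM CPM in Ctrl, 78.2, 74.9 and 83.7 in Cu-Cys and 428, 420.3 and 429 in Cadict libraries, and Cdk4 at 1.59. The groups of Cdkn1a did not overlap, with log2 fold changes of 0.42 ± 0.052 for Cu-Cys (edgeR adjusted p = 1.5e-05) and 2.85 ± 0.052 for Cadict (edgeR adjusted p = 3.7e-16). The sizes of these rises depend on the scaling too, since the median of all genes moves by -0.95 with library totals. On TPM, Pmf1 averaged 155 in Ctrl and 138 in Cadict libraries. In the same order, Zwint averaged 120.2 and 201 TPM, Cdkn1a 79.4 and 232, and Cdk4 454 and 554. Anapc16 averaged 27.2 and 42.4 TPM and Anapc15 45.4 and 68.9, so these 2 were also higher in Cadict libraries.

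**Figure D5:**
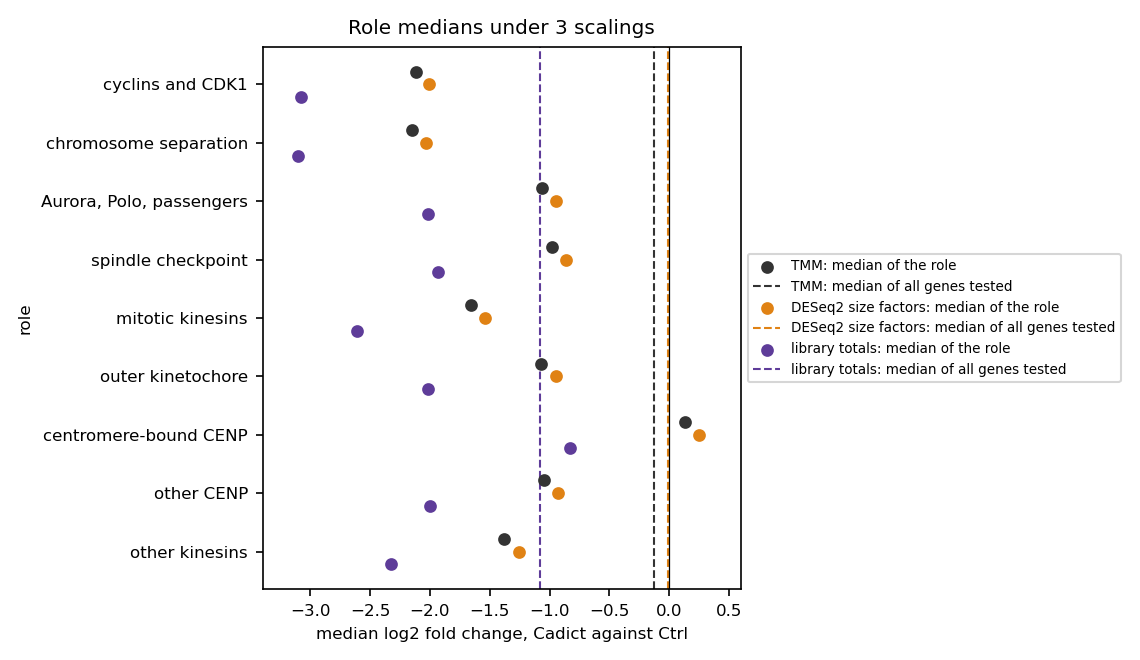
Median log2 fold change of Cadict against Ctrl for each role under TMM, DESeq2 size factors and library totals (points), with the median of all genes tested under each (dashed lines). Under all 3, the medians of 8 roles lie left of the matching dashed line and that of the centromere-bound CENP genes lies right of it; its sign is positive at 0.13 and 0.25 with the first 2 scalings and negative at -0.83 with library totals.

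Base composition moved with the size of the fall. Across the 72 genes the Spearman correlation of the Cadict log2 fold change with the GC content of the longest annotated transcript was -0.35, and across 11650 tested genes it was -0.13. These are descriptions across genes that share the same libraries. At the lowest GC contents, from 31.0% to 44.8%, the 26 members had a median of -1.06 and all genes 0.063, and at the highest, from 54.5% to 74.4%, the 12 members had -1.55 and all genes -0.50. The members were thus below all genes in both of those ranges. The part of GC content in the falls was not tested. With transcript length the correlation was -0.083 across the 72 genes.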

How the data were processed

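RNA from 9 libraries of MC38 cells was analysed, 3 per group. The authors deposited 1 table of 16509 genes with FPKM, TPM and an expected count, an estimate of a gene's reads that is not normalized, for each library. The submitters' processing notes list HISAT2 2.1.0, Bowtie2 2.3.4.3, RSEM 1.3.1 and the builds GRCm39 and GRCh38.p13, without their roles. The study's methods name TRIzol and an Illumina instrument, whereas the labels name a column kit and DNA nanoball sequencing. Columns of group means and of normalized counts were not used. One marker gene is not reported here.

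Groups came from the sample titles and columns were matched to them by name, with the Cadict abbreviation inferred. Expected counts were rounded and tested in R 4.3.3 with edgeR 4.0.16: filterByExpr, TMM, and 1 quasi-likelihood fit of the 3 groups for 3 comparisons, adjusted by Benjamini-Hochberg over 11949 genes. The procedure was tested on simulated data. Error bars are SD over 3 libraries or SE of the fit. A count of 0 allows up to 3 counts. The SE was taken from the F statistic of the quasi-likelihood test, which includes the spread between libraries. The members, their roles and the lists of partners were chosen with earlier results of these data known. Named genes were the 23 listed genes, the mitotic kinesins and the CENP genes. Of the other kinesins, the 5 largest called rises and falls averaging 1 TMM CPM or more were named, and of each list of partners the 2 largest called rises and falls averaging 5 or more. Shared 50-base stretches, GC content and exon overlap were read from GENCODE M21 (GRCm38), which is not the authors' build. Promoter windows are from RefSeq (GRCm38.p6).

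Alternatives were DESeq2 1.42.0 size factors and Wald test, library totals, no filter, at least 10 counts in every library, the 6 libraries compared, limma 3.58.1 on log2(FPKM + 1), log2(TPM + 1) and log2(TPM + 0.1), the replicate number as a block, a threshold without a fold limit, and leaving out each library. Role medians under other scalings, the effective lengths, the promoter split by role and the genes named for Cadict against Cu-Cys were chosen after seeing the data. Same-numbered libraries of different groups did not deviate together, with correlations of -0.0929 to 0.0483, so numbers were not treated as pairs.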

Additional observations from a re-analysis of the deposited data

Results flagged for a closer look

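In 5 genes the 2 treatments had opposite signs against the Ctrl libraries, with both values past an adjusted p of 0.05 and the difference between the treatments itself tested (edgeR's quasi-likelihood test, Benjamini-Hochberg adjustment). For Ccnb1 the log2 fold change of Cadict against Cu-Cys was -2.69, with every Cu-Cys library above and every Cadict library below Ctrl. For Cdc20 it was -1.53 and for Aurka -0.59, with the same order of the groups. Ccnb1 and Cdc20 share 23.4% and 10.4% of their 50-base stretches with other annotated genes. In the reverse order, Cenpp differed by 1.25 and Cenph by 0.62. Cenpp stood at 4.38 to 13.2 TMM CPM, on 95 to 160 counts per library. With library totals Cenph turned to -0.26 between the treatments, and both Cenpp and Cenph were below 0 in Cadict against Ctrl. The Cu-Cys values against Ctrl no longer passed the test without 1 of the libraries for Ccnb1 (Cu-Cys replicate 3), Cenpp (Ctrl replicate 2 or 3, Cu-Cys replicate 1 or 3) and Cenph (Ctrl replicate 1 or 3, Cu-Cys replicate 2 or 3). With other processing the Cu-Cys values did not pass for Ccnb1 with library totals (0.13), FPKM (0.13) and TPM (0.055), for Aurka on TPM (0.15) and for Cenph with DESeq2's size factors or Wald test (-0.20). On TPM the difference between treatments of Cenpp was 0.086 and did not pass. The cause of these differences was not tested.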

How the results depend on the processing

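Of the 72 genes tested, those called lower in Cadict against Ctrl numbered 39 to 59 over all alternatives, and every alternative gave a median below 0. The median was -1.17 with DESeq2's size factors and with its Wald test, -2.24 with library totals, -1.37 without the filter, -2.26 and -2.49 on TPM with pseudocounts of 1 and 0.1, and -1.85 on FPKM. Genes called higher numbered 4 with DESeq2's size factors and its Wald test, 1 without the filter and with at least 10 counts in every library, and 0 with library totals, TPM or FPKM. Without a fold limit there were 15. In Cu-Cys against Ctrl the number called lower was 0 with at least 10 counts in every library, on TPM and on FPKM, 2 with the 6 libraries compared and 32 without a fold limit, and 5 were then higher. The median was -0.087 with DESeq2's size factors and Wald test, -0.18 with library totals, -0.17 on FPKM, and -0.24 and -0.25 on TPM. In Cadict against Cu-Cys it was -1.0 with both DESeq2 settings, -1.97 with library totals, -1.18 without the filter, -1.58 on FPKM, and -1.88 and -2.01 on TPM, and genes called higher numbered 0 with library totals, TPM or FPKM and 17 without a fold limit.

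Of the rises in Cadict against Ctrl named by the rule for these genes, all but Cenpw changed sign with at least 1 of library totals, FPKM and TPM, which use no scaling for composition, and the median of all genes moved by -0.95 with library totals. In Cadict against Ctrl with library totals, the log2 fold changes were Birc5 -0.58, Bub3 -0.10, Cenph -0.56, Cenpk -0.069, Cenpn -0.74, Cenpo -0.52, Cenpp -0.12, Cenpq -0.20, Cenpu -0.21 and Tpx2 -0.70. On FPKM they were Birc5 -0.51, Bub3 -0.11, Cenph -0.55, Cenpk -0.078, Cenpn -0.72, Cenpo -0.46, Cenpp -0.11, Cenpq -0.19, Cenpu -0.19 and Tpx2 -0.74. On TPM with a pseudocount of 1 they were Birc5 -0.86, Bub3 -0.45, Cenph -0.89, Cenpk -0.42, Cenpn -1.06, Cenpo -0.79, Cenpp -0.44, Cenpq -0.52, Cenpu -0.51, Kif2a -0.31, Kif5b -0.22 and Tpx2 -1.09. With 0.1 they were Birc5 -0.86, Bub3 -0.45, Cenph -0.91, Cenpk -0.42, Cenpn -1.10, Cenpo -0.85, Cenpp -0.47, Cenpq -0.54, Cenpu -0.56, Kif2a -0.32, Kif5b -0.22 and Tpx2 -1.09. In Cadict against Cu-Cys, Cenph was at -0.26 with library totals, -0.27 on FPKM, -0.54 and -0.55 on TPM, Kif2a at -0.0078, -0.27 and -0.28 on FPKM and TPM, and Kif5b at -0.038 on TPM, while Cenpp kept its sign at 0.086 and 0.092 on TPM without passing the test. The Cu-Cys rises of Ccnb1, Aurka and Bub3 kept their sign on TPM, at 0.055, 0.15 and 0.11, but did not pass.

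Leaving out each library in turn gave 42 to 44 genes called lower and 1 to 3 higher in Cadict against Ctrl, with a median of -1.33 to -1.27. Without the first Cadict library Kif2a was also called higher. Without the second, Cenpw was lost and Cenpt gained, and without the third, Cenpa and Kif5b were lost. In Cu-Cys against Ctrl 1 to 2 were called lower, Kif9 being the addition without the first or the second Cadict library, with a median of -0.14 to -0.11. In Cadict against Cu-Cys 35 to 36 were called lower, with Kif21b lost without the first Cadict library, Kif11 lost and Cenpm gained without the second, and a median of -1.14 to -1.05. With the replicate block, 43, 1 and 36 genes were called lower in the 3 comparisons and the medians were -1.29, -0.11 and -1.09. With the block Kif14, at -0.16, no longer passed in Cu-Cys against Ctrl. Kif4, Kif13a, Kif14, Cenpm and Cenpt also lost their Cu-Cys fall without one or another library. The cause of the changes under other settings was not tested. Genes near 1 TMM CPM, such as Kif6 and Kif21b in Cadict libraries, rested on few counts.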
